A study of Mus musculus with 6 samples.

Results

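The lipins and the enzymes that build triacylglycerol were followed in mouse liver across Sec15 knockout (KO) and wild-type (WT) animals. The set holds 9 genes, namely the lipins Lpin1, Lpin2 and Lpin3, the acyltransferases Gpam, Agpat2, Dgat1, Dgat2 and Mogat1, and the lipase Mgll. Every non-control probe whose transcript accession matched one of these symbols was taken, which gave 13 probes of 39429 on the array and 9 genes of 20659 with a symbol. The genes were selected on their role in the pathway with their measured KO and WT levels on these same arrays already known, so the values that set KO against WT for them are a description, with no test. The rule set no threshold on those levels.

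Both groups were untreated male mice, 6 weeks old, with 3 Sec15 KO and 3 WT liver samples. Total RNA was labelled with Cy3 and each sample was hybridised to its own one-colour oligonucleotide array. Sec15 belongs to the exocyst, a complex that holds vesicles at the cell membrane before they fuse, and the study asked how it directs the movement of STAT3 in blood stem cells. The labels state neither the strain, nor the knockout allele, nor whether Exoc6 or Exoc6b (the mouse genes for Sec15) was deleted, nor whether each sample came from its own animal, so the spread between samples may be partly technical.

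Triacylglycerol is assembled on a glycerol backbone. GPAM, at the outer mitochondrial membrane, adds the first fatty acid to glycerol 3-phosphate, and AGPAT2 adds the next to give phosphatidic acid. Lipins remove the phosphate from phosphatidic acid to give diacylglycerol, and DGAT1 or DGAT2 adds the last fatty acid. In a parallel route MOGAT1 makes diacylglycerol from monoacylglycerol, and MGLL, monoacylglycerol lipase, takes monoacylglycerol apart. Lipin 1 is also known as a transcriptional coactivator in liver, where its gene is induced by fasting and glucocorticoids, and its loss causes the fatty liver dystrophy of mice.

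Levels are log2 values of the processed spot brightness, from which the 75th percentile of the same array was subtracted, so 0 is that percentile and each step of 1 multiplies the signal by 2. Levels of different probes are not comparable. Between 64.8% and 70.3% of probes were well above background on an array, a flag that the scanner software sets, and no spot was saturated. The headers show that the 3 WT arrays and KO replicate 2 were read in scan 1 and KO replicates 1 and 3 in scan 2. Scan 2 thus held no WT array. Where the scan is taken as a block in the fit, the difference is therefore that of KO replicate 2 alone from the 3 WT arrays. The Exoc6 probe was well above background on no KO array and 1 WT array, 1 of the 2 Exoc6b probes on none, and the other Exoc6b probe on all 6, where it read between -0.06 and 0.14 in KO and between 0.31 and 0.78 in WT (difference -0.53, SE 0.15, limma adjusted p = 0.0436). Whether these probes lie in the deleted part is not given in the sources used here, so they check no label. Of the hepatocyte markers, 9 of 10 had a probe and all 9 were well above background on every array, with summed levels (on the linear scale, in units of the 75th percentile) of 1873 to 2293 in KO and 1848 to 2018 in WT. Red cell markers summed to 295 to 352 in KO against 75.2 to 112 in WT (9 of 10 above background on every KO array, 6 of 10 on every WT array), and 7 rose and 0 fell of 9 tested. Macrophage markers summed to 43.3 to 55.7 in KO against 31.7 to 32.0 in WT, and endothelial and stellate cell markers to 45.2 to 54.4 in KO against 34.3 to 40.0 in WT, with Lyz2 and Reln above background on no array. At the adjusted threshold, 3 of 6 macrophage, 4 of 7 endothelial and stellate cell and 3 of 9 hepatocyte markers tested rose and none fell, while Col1a1 differed by -0.62 and Pecam1 by -0.39 without passing. These marker counts stand beside 18.6% higher and 10.7% lower among all 15556 genes with a symbol. The part of these cells in the results below was not tested.

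Of the 13 probes, 12 were kept for the fit across all probes, which used probes flagged as well above background on 3 or more arrays. The probe not kept was the dimmer one of Lpin1. Among the 12 kept, 3 were higher in KO at a limma adjusted p under 0.05 (1 probe each of Lpin1, Lpin2 and Dgat1) and 1 was lower (1 of 4 Mgll probes), beside 17% higher and 11.6% lower (28.6% in all) among all 27054 kept probes. That Mgll probe, A_55_P2063311, was well above background on all 3 WT arrays and on no KO array. It was thus kept only through the group where it is high, and its call as lower is no support. With the scan as a block, 1 of the 12 passed, the brighter Lpin1 probe, beside 9.34% of all kept probes. The KO and WT values did not overlap for 9 of the 12, with KO above WT in 6 and below in 3, where 30.6% and 19.6% (50.2% in all) of all kept probes did so. Since the genes were chosen with this contrast known, nothing is read from these counts. The median difference over the 12 probes was 0.20, against 0.075 over all kept probes.

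**Figure D1:**
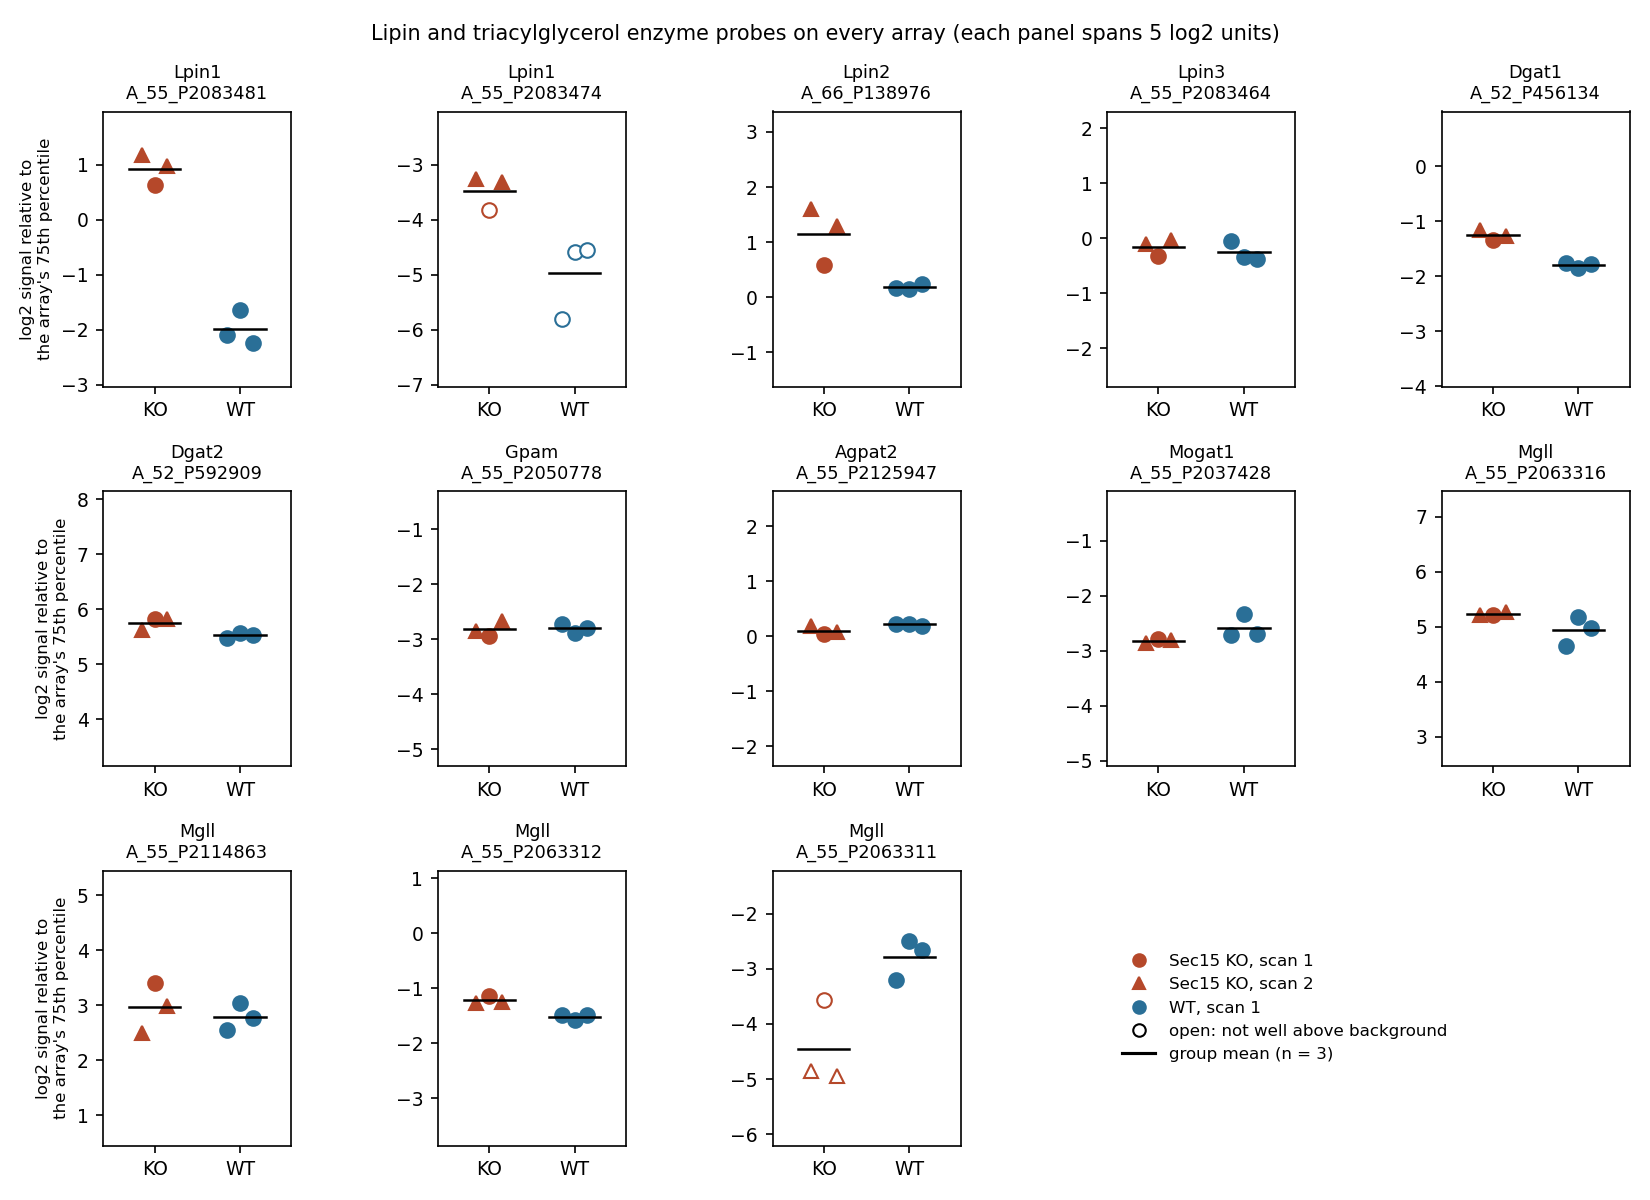
Level of each of the 13 probes on every array, as log2 signal relative to the array's 75th percentile (vertical axis), with KO left of WT. Points are single arrays, circles scan 1 and triangles scan 2, open where the probe was not well above background, and bars are group means (n = 3). The Lpin1 probe A_55_P2083481 reads from 0.64 to 1.17 in KO and from -2.24 to -1.64 in WT.

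The lipins, which make diacylglycerol from phosphatidic acid, differed from each other in how far KO stood from WT. The 250 bases before the first annotated start of each lipin gene are shown because the probes of this family read so differently. They are RefSeq sequences of build GRCm38.p6, and capitals mark matches to the motifs listed after them. Lpin1 lies at chr12:16610967-16611216 on the minus strand, Lpin2 at chr17:71183282-71183531 and Lpin3 at chr2:160880420-160880669, both on the plus strand.
Lpin1: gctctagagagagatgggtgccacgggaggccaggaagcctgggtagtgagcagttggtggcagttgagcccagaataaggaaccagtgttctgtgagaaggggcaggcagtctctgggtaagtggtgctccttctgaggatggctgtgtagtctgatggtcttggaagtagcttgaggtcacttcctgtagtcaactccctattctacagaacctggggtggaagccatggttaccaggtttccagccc
Lpin2: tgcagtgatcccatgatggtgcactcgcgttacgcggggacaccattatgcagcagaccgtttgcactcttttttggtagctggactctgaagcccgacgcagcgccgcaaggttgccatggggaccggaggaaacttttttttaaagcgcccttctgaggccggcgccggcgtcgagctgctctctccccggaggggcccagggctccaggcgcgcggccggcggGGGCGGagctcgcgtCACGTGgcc
Lpin3: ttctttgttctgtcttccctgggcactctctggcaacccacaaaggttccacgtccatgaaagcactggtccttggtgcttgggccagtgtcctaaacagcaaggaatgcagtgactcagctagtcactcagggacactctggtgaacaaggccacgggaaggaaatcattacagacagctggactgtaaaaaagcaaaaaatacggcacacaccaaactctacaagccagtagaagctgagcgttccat
The search used both strands, and the share of all 32851 windows of that length in the table with a match follows each motif. The motifs were the TATA box TATAAA (12.4%), the CCAAT box CCAAT (33.8%), the GC box GGGCGG (32.7%), the E-box CACGTG (6.02%), the cyclic AMP response element TGACGTCA (1.55%), the glucocorticoid response element, an inverted pair of AGAACA with 3 free bases between (0.00913%), and the DR1 element of nuclear receptors, a direct pair of AGGTCA with 1 free base between (0.0335%). Lpin2 held a GC box from -24 to -19 and an E-box from -9 to -4, counted from the start. Lpin1 and Lpin3 held none of the 7 in these windows, which says only that these letters are not there. Later starts in the table differed: the second start of Lpin3 held a GC box from -111 to -106, the second start of Lpin2 a GC box from -79 to -74, and the third start of Lpin2 held 3 CCAAT boxes. The windows were 54.8% G and C for Lpin1, 65.2% for Lpin2 and 49.6% for Lpin3. Of the 9 genes, 7 had a start in the table.

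Lpin1 stood furthest from WT among the kept probes of the set. Its probe A_55_P2083481 read 1.17, 0.64 and 0.98 in KO replicates 1, 2 and 3, and -2.09, -1.64 and -2.24 in WT replicates 1, 2 and 3. All 3 KO arrays lay above all 3 WT arrays, with a gap far wider than the spread within either group. The mean was 0.93 ± 0.27 in KO and -1.99 ± 0.31 in WT (SD, n = 3 each), a difference of 2.92 (SE 0.21) or 7.56-fold. By size it was number 29 among probes higher in KO. KO replicate 2, read in the scan of the WT arrays, was the lowest KO array, and the difference within that scan was 2.63. Across normalisations the difference ran from 2.20 with normexp background correction to 3.04 with median centring.

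The other Lpin1 probe, A_55_P2083474, is assigned to the same accession, NM_001130412, and was dim. It read -3.27, -3.83 and -3.32 in KO and -5.80, -4.58 and -4.55 in WT. It was well above background on 2 KO arrays and no WT array, so the WT level is only a bound. The signal was at least 1.50-fold higher in KO, taking for WT the higher of the probe's own signal and the lowest signal well above background on that array. The KO mean in that bound includes replicate 2, which was itself not well above background, and the order of this probe's undetected arrays carries no information.

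Lpin2, whose protein is abundant in liver, read 1.59, 0.58 and 1.29 in KO and 0.17, 0.15 and 0.24 in WT on its only probe. The KO arrays lay above the WT arrays but were widely spread, with 1.15 ± 0.52 in KO and 0.19 ± 0.05 in WT (SD, n = 3 each), a difference of 0.97 (SE 0.26) or 1.96-fold. The 2 KO arrays of scan 2 were the high ones: they averaged 0.86 above KO replicate 2, and within scan 1 the difference was 0.39. An effect of the scan and the spread among KO samples cannot be told apart for this gene, because scan 2 held no WT array.

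Lpin3, the third lipin, read -0.11, -0.32 and -0.02 in KO and -0.05, -0.34 and -0.37 in WT. The groups overlapped, and the means were -0.15 ± 0.15 in KO and -0.25 ± 0.17 in WT (SD, n = 3 each), a difference of 0.10 (SE 0.14) that was -0.067 within scan 1. The probes of the 3 lipins thus read 2.92, 0.97 and 0.10 higher in KO, in the order Lpin1, Lpin2 and Lpin3, and this order of the differences held within scan 1 at 2.63, 0.39 and -0.067.

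**Figure D2:**
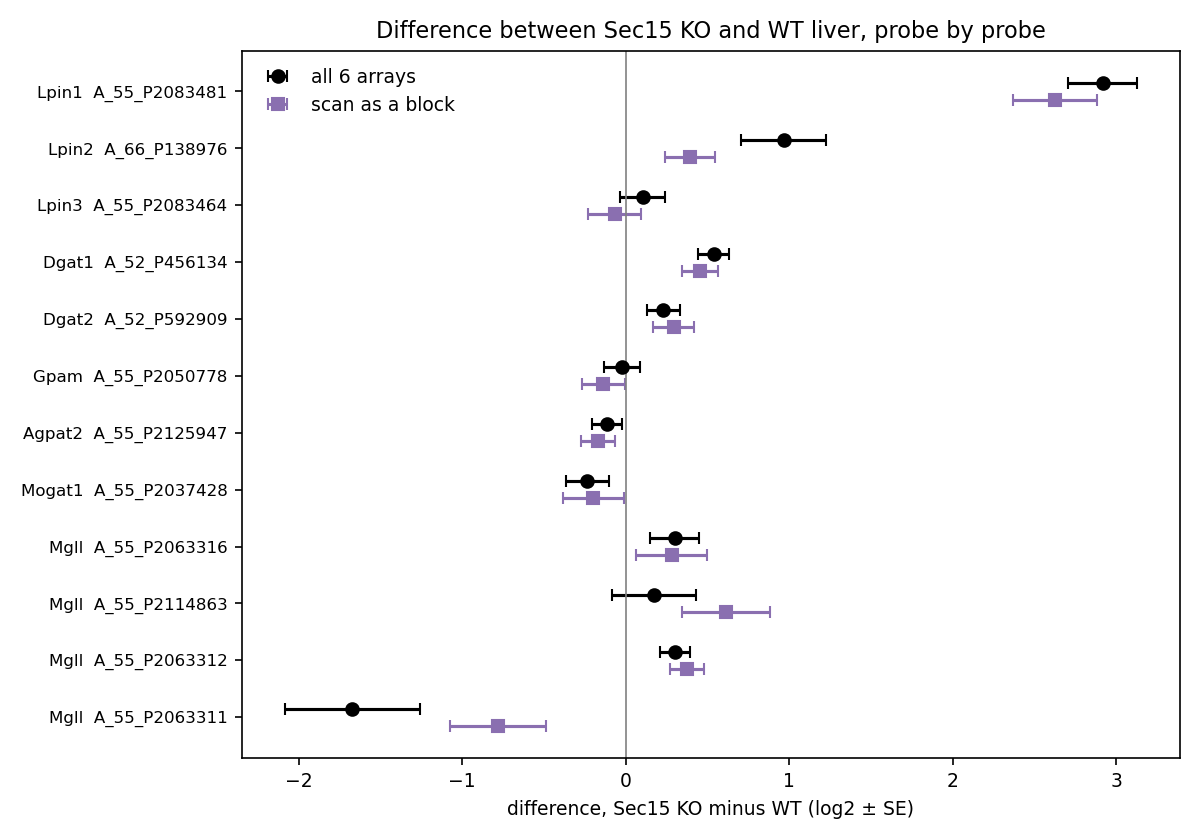
Difference in level between KO and WT for the 12 kept probes (horizontal axis, log2, with bars of 1 SE). Black circles use all 6 arrays and purple squares take the scan as a block. Lpin1 lies at 2.92 and 2.63, while Lpin2 lies at 0.97 and 0.39.

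Gpam and Agpat2, the acyltransferases of the set that supply the lipins with phosphatidic acid, differed little between the groups. Some other acyltransferases of these steps rose, as given with the list of acylation and backbone supply below. Gpam, the mitochondrial enzyme of the first step, read -2.86, -2.94 and -2.68 in KO and -2.72, -2.88 and -2.79 in WT. The groups overlapped and the difference was -0.023 (SE 0.11), with the sign turned at 0.10 after quantile normalisation and 0.082 after cyclic loess.
Agpat2, whose loss causes generalized lipodystrophy in people and mice, read 0.18, 0.05 and 0.08 in KO and 0.23, 0.23 and 0.20 in WT. Every KO array lay below every WT array, but by little, and the difference was -0.11 (SE 0.09) and 0.0048 after median centring.

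The enzymes that add the last fatty acid did not read alike across normalisations. Dgat1, which in liver esterifies fatty acids taken up or recycled from droplets, read -1.16, -1.33 and -1.26 in KO and -1.75, -1.85 and -1.77 in WT. The groups did not overlap and each was tight, with means of -1.25 ± 0.09 in KO and -1.79 ± 0.05 in WT (SD, n = 3 each), and a difference of 0.54 (SE 0.10) or 1.45-fold. Within scan 1 it was 0.46, and across normalisations it ran from 0.35 to 0.66.
Dgat2, an enzyme unrelated to Dgat1 in sequence and linked to newly made fatty acids, read 5.63, 5.82 and 5.82 in KO and 5.48, 5.58 and 5.53 in WT. The groups did not overlap, yet the difference of 0.23 (SE 0.10) turned to -0.11 after quantile normalisation and -0.054 after cyclic loess, so no direction is given for Dgat2.

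Mogat1, of the monoacylglycerol route, read -2.86, -2.78 and -2.80 in KO and -2.71, -2.33 and -2.70 in WT. Every KO array lay below the WT arrays, with a difference of -0.23 (SE 0.13) to which WT replicate 2 contributed most, since without it the difference was -0.11. With normexp background correction it was 0.0079.

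Mgll, which cleaves monoacylglycerol to glycerol and a fatty acid, had 4 probes that did not read alike. The brightest, A_55_P2063316, read 5.22, 5.22 and 5.27 in KO and 4.66, 5.17 and 4.98 in WT, a difference of 0.30 (SE 0.15) that was 0.0086 after quantile normalisation and -0.023 with normexp. A_55_P2114863 read 2.49, 3.40 and 2.98 in KO and 2.55, 3.04 and 2.77 in WT, with overlapping groups and a difference of 0.17 (SE 0.26). Both of these probes are assigned to the accession NM_001166251.
The remaining pair is assigned to NM_001166250, and it pointed in opposite directions. A_55_P2063312 read -1.27, -1.15 and -1.25 in KO and -1.49, -1.58 and -1.50 in WT, with KO above WT throughout and a difference of 0.30 (SE 0.09). A_55_P2063311 read -4.86, -3.56 and -4.94 in KO and -3.20, -2.48 and -2.66 in WT, with KO below WT throughout. It was well above background on no KO array and on all 3 WT arrays, so the KO level is only an upper bound. With the reported scaling, the group means put the signal at least 2.14-fold lower in KO. For each KO array this took the higher of the probe's own signal and the lowest signal well above background. The measured difference was -1.67 (SE 0.41), -0.78 within scan 1 and -0.38 with normexp background correction. The differences within scan 1 and with normexp fall short of that bound, which thus holds for neither. Where on the transcripts each probe binds is not given in the sources used here, so the Mgll probes give no common direction for the gene.

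**Figure D3:**
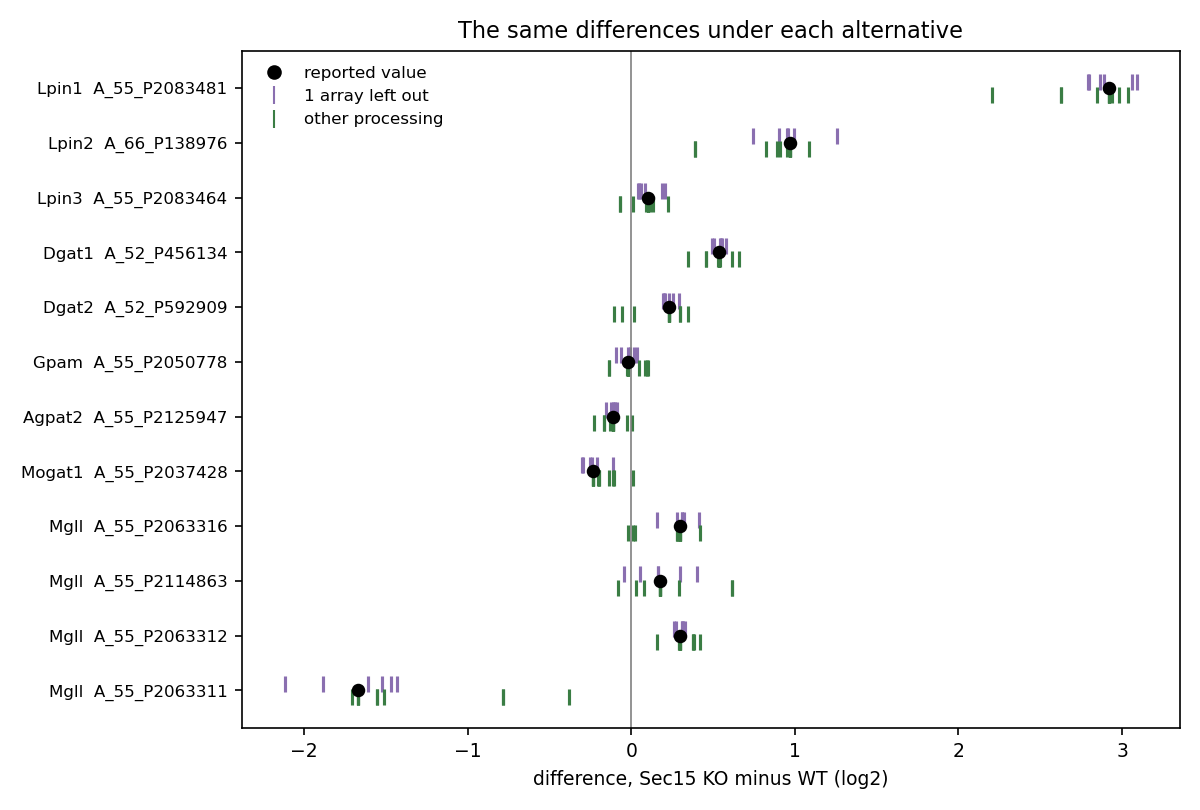
Difference between KO and WT for the 12 kept probes (horizontal axis, log2) under each alternative. Black points are the reported values, purple ticks leave 1 array out and green ticks change the processing. Lpin1 stays between 2.20 and 3.09, and Dgat2 ticks fall on both sides of 0.

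Genes whose pattern over the 6 arrays was most like that of the brighter Lpin1 probe were looked up among 15555 genes with a symbol. Pearson's r was 0.999 for Agmo, an enzyme that cleaves ether lipids, and for Tnrc6c, a partner of microRNA silencing. It was 0.998 for Stab2, a scavenger receptor of the liver's sinusoidal endothelium, for Napa, a vesicle fusion factor, and for Trak1, an adaptor for mitochondrial transport. These 5 genes were higher in KO by 0.24 (Napa) to 0.99 (Stab2). The 6 points are 3 KO and 3 WT arrays that form 2 groups, so r here mostly follows the difference between the groups, and 2466 genes exceeded 0.9. Within the set, Dgat1 had r = 0.97 with Lpin1 and Lpin2 had 0.89, while Agpat2 had -0.73 and Mogat1 -0.60.

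The neighbouring genes of glycerolipid metabolism were taken as 5 lists, with 1 probe for each gene, the brightest kept. Of 116 genes, 107 were measured. The lists were chosen with earlier results of these data known. Their counts, shares and adjusted p values, here and list by list below, are therefore a description. In these, 31 rose and 6 fell in KO (29.0% and 5.61%), where 18.6% and 10.7% (29.3% in all) of 15556 genes with a symbol did so, and the median difference was 0.28 against 0.11 over all genes with a symbol. With the scan as a block these medians were 0.16 and 0.093, and after cyclic loess 0.15 and 0.013. The balance between rises and falls moved with the scaling, from 83.8% rises as reported to 90.7% with median centring (39 and 4) and 56.7% after cyclic loess (17 and 13). The counts also leaned on single arrays. Leaving out KO replicate 1 gave 11 rises and 2 falls, leaving out KO replicate 2 gave 46 and 10, and leaving out KO replicate 3 gave 3 and 0. Dropping WT replicate 2 gave 9 rises and 1 fall, and dropping WT replicate 3 gave 2 and 0. With the scan as a block 7 rose and 3 fell, against 5.34% and 3.96% of all genes with a symbol. In whole tissue, more cells of a type and more RNA per cell cannot be told apart.

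In the list of acylation and backbone supply, 7 of 19 measured genes rose (36.8%) and none fell, and 12 did not pass the test. Over all genes with a symbol 18.6% rose and 10.7% fell. Gpat3, an acyltransferase of the endoplasmic reticulum for the same first step as Gpam, read 0.92, 0.94 and 1.00 in KO and -0.50, -0.23 and -0.39 in WT. It rose 2.51-fold (difference 1.33, SE 0.11, limma adjusted p = 0.00493), and within scan 1 the difference was 1.31 (adjusted p = 0.0237 with the scan as a block). Here as throughout, the difference within scan 1 and with the block is that of KO replicate 2 alone from the WT arrays. KO and WT arrays of Gpat3 were far apart, in contrast to the overlapping arrays of Gpam. Gpat2, a further mitochondrial acyltransferase best known from testis, rose 1.72-fold (difference 0.78, SE 0.11), and Slc27a2, which takes up and activates fatty acids, rose 1.55-fold (difference 0.64, SE 0.08). Agpat3 rose 1.43-fold and lost its call with the scan as a block (difference 0.38, adjusted p = 0.0772). The list's median difference was 0.26.

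In the list of other fates of phosphatidic acid and diacylglycerol, 5 of 26 measured genes rose and 1 fell (19.2% and 3.85%). Over all genes with a symbol the shares were 18.6% and 10.7%, so the share of rises was near that of all genes. Plpp2 and Plpp3, lipid phosphate phosphatases that act on phosphatidic acid without the lipins, rose 1.66-fold (difference 0.73, SE 0.16) and 1.53-fold (difference 0.61, SE 0.15). Plpp1, of the same family, differed by 0.52 (SE 0.18) without passing the test, and its second probe by -2.68. The diacylglycerol kinases, which run the lipin step backwards, did not move together: Dgkd rose 1.32-fold (difference 0.40, SE 0.09) and Dgkz fell by 0.38 (SE 0.09). Each of these 4 calls ended with the scan as a block, where the difference was 0.90 for Plpp2 (adjusted p = 0.0601), 0.35 for Plpp3 (adjusted p = 0.146), 0.38 for Dgkd (adjusted p = 0.0796) and -0.48 for Dgkz (adjusted p = 0.0536). The list's median difference was 0.25, and 0.07 after cyclic loess.

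**Figure D4:**
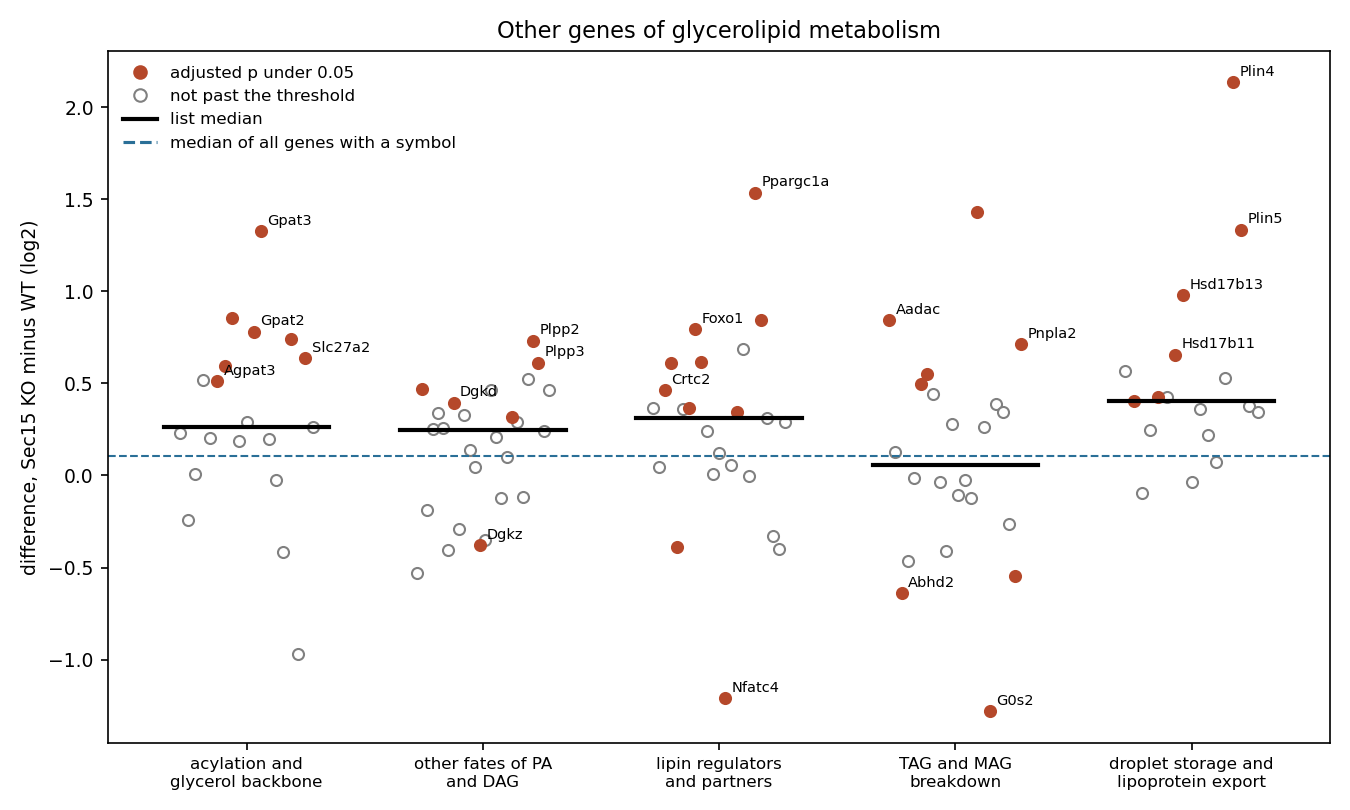
Difference between KO and WT (vertical axis, log2) of 107 measured genes in 5 lists of glycerolipid metabolism. Filled points passed the adjusted threshold, open points did not, thick bars are list medians and the dashed line is the median of all genes with a symbol (0.11). PA, DAG, TAG and MAG stand for phosphatidic acid, diacylglycerol, triacylglycerol and monoacylglycerol.

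In the list of lipin regulators and partners, 8 of 23 genes rose and 2 fell (34.8% and 8.7%), beside 18.6% and 10.7% of all genes with a symbol. Ppargc1a, the coactivator that induces Lpin1 and binds its protein in liver, read 1.94, 1.94 and 1.97 in KO and 0.70, 0.15 and 0.39 in WT. The KO arrays nearly coincided and lay above all WT arrays, a rise of 2.90-fold (difference 1.54, SE 0.15, limma adjusted p = 0.00647) that was 1.53 within scan 1. Foxo1, the insulin-inhibited transcription factor of fasting, rose 1.73-fold (difference 0.79, SE 0.14), and its second probe stood 0.85 higher. Crtc2, a coactivator of CREB, rose 1.38-fold (difference 0.46, SE 0.09), but its second probe differed by -0.40 and its call ended with the scan as a block (difference 0.40, adjusted p = 0.0741). Nfatc4, a calcium-regulated transcription factor, fell by 1.21 (SE 0.23), with a call that also ended there (difference -1.10, adjusted p = 0.100). The other gene that fell was Ctdnep1, the phosphatase that activates lipins, by 0.39 (SE 0.09, limma adjusted p = 0.0284), and its call ended with the block as well (difference -0.32, adjusted p = 0.110). Srebf1, which drives Gpam and fatty acid synthesis, differed by -0.33 (SE 0.12) without passing the test. The list's median difference was 0.31, and 0.12 after cyclic loess.

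In the list of triacylglycerol and monoacylglycerol breakdown, 5 of 22 measured genes rose and 3 fell (22.7% and 13.6%). Both shares were near the 18.6% and 10.7% of all genes with a symbol. Pnpla2, the lipase that starts triacylglycerol breakdown, read 3.88, 3.58 and 3.94 in KO and 3.06, 3.12 and 3.07 in WT, a rise of 1.64-fold (difference 0.71, SE 0.12). Its inhibitor G0s2 read -0.58, -0.96 and -0.64 in KO and 0.80, 0.16 and 0.71 in WT, and fell by 1.28 (SE 0.21, limma adjusted p = 0.0126). For this pair the groups did not overlap in either gene and the signs were opposite, but the call of Pnpla2 ended with the scan as a block (difference 0.49, adjusted p = 0.0513) while that of G0s2 did not (difference -1.52, adjusted p = 0.0402). Aadac, a lipase-like deacetylase of liver microsomes, rose 1.79-fold (difference 0.84, SE 0.12) and its call ended with the block too (difference 0.70, adjusted p = 0.0522). Abhd2, a monoacylglycerol hydrolase, fell by 0.64 (SE 0.13), and the third gene that fell, the pancreatic lipase Pnlip, by 0.55 (SE 0.12), a call that ended with the block (difference -0.44, adjusted p = 0.126). Ces1f, a liver carboxylesterase, passed the test as lower with the scan as a block (difference -0.67, adjusted p = 0.0388) and not without it (difference -0.41, adjusted p = 0.0737). The list's median difference was 0.058, and it was 0.20 with the mean of each gene's probes in place of the brightest. It turned to -0.046 after cyclic loess and -0.031 with the scan as a block, so no direction is given for this list.

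In the list of droplet storage and lipoprotein export, 6 of 17 measured genes rose (35.3%) and none fell, beside 18.6% and 10.7% of all genes with a symbol. Plin4, a perilipin of the droplet surface, read 0.52, 1.80 and 1.34 in KO and -1.24, -0.63 and -0.88 in WT, a rise of 4.40-fold (difference 2.14, SE 0.35, limma adjusted p = 0.0126) that was 2.72 within scan 1. Plin5, a perilipin that links droplets to mitochondria, rose 2.52-fold (difference 1.34, SE 0.16). The droplet proteins Hsd17b13 and Hsd17b11 rose 1.97-fold and 1.58-fold, with calls that ended with the scan as a block (difference 0.81, adjusted p = 0.0856 for Hsd17b13, and difference 0.48, adjusted p = 0.0785 for Hsd17b11), and the second probe of Hsd17b13 stood 0.066 higher. Plin2, the main droplet coat of hepatocytes, differed by 0.072 (SE 0.26), and Mttp, which loads lipid onto apolipoprotein B, by -0.034 (SE 0.12). The list's median difference was 0.41, and 0.16 within scan 1.

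Tissues that carry much lipin or acyltransferase RNA and could be taken along with liver were checked by their markers. Of 10 adipocyte markers, 5 were well above background on every KO array and 7 on every WT array, and the defining genes Adipoq and Lep were well above background on no array. The list summed to 311 to 519 in KO and 407 to 455 in WT, mostly from Pck1 and Car3, which liver itself expresses. Fabp4, which other cell types also express, was higher in KO by 1.64 (limma adjusted p = 0.00582), while Retn was lower by 1.66 and Cfd by 1.01. Skeletal muscle markers summed to 1.69 to 2.06 in KO and 2.03 to 2.70 in WT, with Acta1, Actn3 and Myh1 above background on no array. Of 5 tested, only Tnnt3 passed, lower in KO by 0.57 (limma adjusted p = 0.0389). Enterocyte markers summed to 13.1 to 18.6 in KO and 13.3 to 14.4 in WT, mostly from Fabp2, with Vil1 above background on no array. Of 6 tested, only Apoa4 passed, higher in KO by 1.11 (limma adjusted p = 0.0117). The part of these cells in the values above was not tested beyond these measurements.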

How the data were processed

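Liver RNA of 3 Sec15 KO and 3 WT samples was measured on 6 one-colour Agilent arrays. The deposited values are the intensity per spot, background-subtracted and detrended within the array by Agilent Feature Extraction 11.0.1.1 with no scaling across arrays, per the file headers (array design on build mm9). The deposited files also hold other columns, flags coded 0 or 1 per spot, per the file headers. Groups and replicate numbers came from the labels.

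Outlier spots (178 to 236 per array) were left out of 43020 non-control spots, and log2 signals of 1 probe were averaged. The array's 75th percentile was subtracted. Probes well above background on at least 3 arrays were kept (27054). Accessions were matched to a RefSeq table of GRCm38.p6 for names: 27234 probes matched 1 symbol and 12195 none.

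KO and WT were compared over all kept probes with limma 3.58.1 (lmFit, eBayes) in R 4.3.3, with the packages data.table (version 1.17.8) and jsonlite (version 2.0.0), and Benjamini-Hochberg adjustment at 0.05. The script was tested on simulated data. The number of arrays limits the precision. The members and lists were chosen with earlier results of these data known. Named genes were all member probes, up to 4 called genes per list with the smallest p, and the 5 most like Lpin1. Plpp1, Srebf1, Ctdnep1, Pnlip, Ces1f, Plin2, Mttp and the marker genes were added after their values were seen. Alternatives were other normalisations and filters, a moderated variance trend, blocks for replicate number and scan, scan 1 alone, WT replicates 1 and 2 averaged (their deposited names share a number), the mean of a gene's probes, and each array left out.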

Additional observations from a re-analysis of the deposited data

How the results depend on the processing

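Of the set, the brighter Lpin1 probe stood higher in KO in all 17 alternatives run and passed the threshold in all but scan 1 alone, which is a description, since the genes were chosen with these levels known. On scan 1 alone KO replicate 2 is the only KO array and its spread is taken from the WT arrays. With the scan as a block the difference also rests on KO replicate 2, and the scan 2 arrays add only to the spread. Lpin2, Dgat1 and Mgll probe A_55_P2063311 kept their directions but lost their calls in 11, 6 and 8 alternatives. The count of 3 higher probes was 4 with quantile normalisation, median centring and the filter on all 6 arrays, and 2 with no filter and with WT replicates 1 and 2 averaged. It fell to 1 with the scan as a block and to 0 on scan 1 alone, and ran from 1 to 3 with 1 array left out. Mgll A_55_P2063312 passed the threshold as higher in 4 alternatives (quantile normalisation, median centring, cyclic loess and the filter on all 6 arrays). The count of 1 lower probe was 0 with the filter on all 6 arrays, where that probe is not tested, with no filter, with the scan as a block, on scan 1 alone and with WT replicates 1 and 2 averaged, and ran from 0 to 1 with 1 array left out.

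Over the lists, 31 higher genes became 17 with cyclic loess, 19 with no filter, 7 with the scan as a block and 0 on scan 1 alone, and 6 lower genes became 10 with quantile normalisation, 11 with normexp, 13 with cyclic loess, 3 with the replicate block, 3 with the scan as a block and 0 on scan 1 alone. With 1 array left out these counts ran from 2 to 46 and from 0 to 10. On scan 1 alone limma called 0 of all 27054 probes, with 7840 at an unadjusted p under 0.05. The causes of these shifts were not tested.

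Signs turned for uncalled probes: Gpam at 0.10 (quantile), 0.10 (median centring), 0.0821 (cyclic loess) and 0.0465 (normexp) and from -0.0959 to 0.0335 with 1 array left out, Dgat2 at -0.11 (quantile) and -0.0544 (cyclic loess), Agpat2 at 0.0048 (median centring), Mogat1 at 0.0079 (normexp), Lpin3 at -0.0667 (scan as a block and scan 1 alone), and for Mgll A_55_P2114863 at -0.0838 (cyclic loess) and from -0.0471 to 0.404 with 1 array left out, and A_55_P2063316 at -0.0226 (normexp). Median centring moved the median of all probes from 0.075 to 0.195.

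Whether replicate numbers pair the samples was not settled. Deviations from the group means correlated weakly between KO and WT arrays of the same number, at 0.10, 0.11 and 0.02. KO replicates 1 and 2 correlated best with the WT array of their own number, and KO replicate 3 with WT replicate 1 (0.036). The replicate block gave 2 higher and 1 lower member probe, and 25 higher and 3 lower list genes. Array weights were not run, since their estimate did not converge on 6 arrays. Signals near background limit Mgll A_55_P2063311 and the dimmer Lpin1 probe.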
